A study of Mus musculus with 6 samples.

Results

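The 10 genes Nrl, Nr2e3, Crx, Otx2, Esrrb, Samd7, Samd11, Neurod1, Rxrg and Thrb encode regulators of photoreceptor identity and were followed through the mouse retina. They were taken by symbol from the gene expression rows of the deposited matrices, where all 10 were found among 32285 listed genes. Samd7 and Samd11 are SAM-domain partners of the Polycomb system, and the others are DNA-binding transcription factors. Their nuclear RNA was described in rod-like, cone-like and bipolar-like nuclei of 3 libraries, together with the open chromatin within 10 kb of their gene starts.

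Nuclei came from the retina of C57BL/6J mice and were profiled by single-nucleus multiome sequencing, an assay of RNA and accessible DNA (ATAC) from 1 nucleus. The control group was naïve. The other groups had received AAV2/2, and their labels place them at 2 weeks and 4 weeks AVI, which is not spelled out. WIF1, the overexpressed protein, is a secreted inhibitor that binds Wnt ligands. The Wif1 vectors of the series are CMV-Wif1-HA and a form of it with GFP, CMV-Wif1-HA-IRES-GFP, both under the broadly active CMV promoter, and the labels do not say which of them these eyes received. No library used the control vector CMV-IRES-GFP, so injection, vector and WIF1 cannot be told apart. Each group had 2 eyes and 1 library, the labels give no age and do not say whether eyes were pooled, and there was no replicate to test against. All intervals below are 95% intervals that cover counting error only, and no p-value is given.

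Photoreceptors are made under a small regulatory circuit. OTX2 commits retinal precursors to the photoreceptor and bipolar lineages, CRX drives the genes of the outer segment in rods and cones, and NEUROD1 is needed to keep photoreceptors alive. NRL and its target NR2E3 fix the rod fate and hold cone genes off, while thyroid hormone receptor beta (Thrb) and the retinoid receptor RXRG act in cones on the choice between short-wavelength opsin (Opn1sw) and medium-wavelength opsin (Opn1mw). ESRRB is a nuclear receptor that supports rod genes and rod survival, and SAMD7 and SAMD11 act with Polycomb complexes to silence genes of other cell types in rods.

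The control, 2-week and 4-week libraries held 8556, 13528 and 10334 barcodes, 21805441, 14568384 and 19997276 unique molecular identifiers (UMIs) of RNA, and 37525307, 90490537 and 71304238 ATAC counts. Rod-like nuclei numbered 4151, 5131 and 6036, cone-like nuclei 399, 478 and 466, and bipolar-like nuclei 1579, 1546 and 1578. The classes were formed without the 10 genes and named from markers that exclude them. The 9 rod-like clusters had 9 to 10 of 10 rod markers enriched, the cone-like cluster 10 of 10 cone markers, and the 10 bipolar-like clusters 3 to 7 of 10 bipolar markers. Esrrb, Samd11 and Nr2e3 did stand among the leading genes of rod-like clusters, and leading genes helped decide which clusters stayed unnamed. Depth and RNA quality moved with the group, since rod-like nuclei had median depths of 1160, 692 and 1025 UMIs and median mitochondrial shares of 1.12%, 0.309% and 0.463%. Control and 2-week libraries shared 173 barcode sequences, control and 4-week libraries 142, and the WIF1 libraries 207. Wif1 RNA was scarce, with 1, 11 and 37 UMIs in all kept nuclei and 0, 3 and 2 in rod-like nuclei.

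Rod RNA was present in every other class, and its amount differed between libraries. The summed level of 5 rod genes, Gnat1 and Pde6a among them, in cone-like nuclei was 17.1%, 7.57% and 13.9% of the rod-like level in the control, 2-week and 4-week libraries. In bipolar-like nuclei it was 15%, 6.40% and 9.05%, and in amacrine-like nuclei 11.7%, 6.55% and 8.19%. For each gene an expected level from rod RNA was therefore computed, as the class's rod gene counts times the ratio of the gene to those rod genes in rod-like nuclei of the same library. A level at or under that expectation cannot be told apart from rod RNA. For some genes the expectation was several-fold above the level seen, as for Samd7 in bipolars, so it can also hide RNA that a class or some of its clusters make.

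The promoter windows of 5 starts are shown first because 3 of them carry the recognition sequence of CRX and OTX2, and the others lack it and lie at starts whose open chromatin differed between rods and cones. Each is the 250 bases before the start, 5′ to 3′ on the strand of the gene, from RefSeq (GRCm38.p6, the assembly of mm10). Capitals mark TAATCC or its reverse complement GGATTA. The windows are those of Crx (chr7:15879956-15880205, minus strand), Samd7 (chr3:30746043-30746292, plus strand), Samd11 (chr4:156255343-156255592, minus strand), Nrl (chr14:55524253-55524502, minus strand) and the downstream start of Thrb (chr14:17981394-17981643, plus strand).
Crx: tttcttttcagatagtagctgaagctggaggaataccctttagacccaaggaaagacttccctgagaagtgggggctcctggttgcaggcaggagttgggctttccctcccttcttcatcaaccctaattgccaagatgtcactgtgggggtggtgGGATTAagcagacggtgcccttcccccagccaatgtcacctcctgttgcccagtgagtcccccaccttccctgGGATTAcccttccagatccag
Samd7: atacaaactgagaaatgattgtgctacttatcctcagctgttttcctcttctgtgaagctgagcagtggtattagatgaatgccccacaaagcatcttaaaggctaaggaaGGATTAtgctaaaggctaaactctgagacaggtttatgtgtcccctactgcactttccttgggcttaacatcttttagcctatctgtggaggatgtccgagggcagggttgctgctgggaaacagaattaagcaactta
Samd11: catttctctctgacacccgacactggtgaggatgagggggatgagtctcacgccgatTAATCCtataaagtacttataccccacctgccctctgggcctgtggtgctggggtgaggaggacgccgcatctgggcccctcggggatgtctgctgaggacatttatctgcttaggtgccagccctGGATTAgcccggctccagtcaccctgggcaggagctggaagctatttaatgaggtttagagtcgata
Nrl: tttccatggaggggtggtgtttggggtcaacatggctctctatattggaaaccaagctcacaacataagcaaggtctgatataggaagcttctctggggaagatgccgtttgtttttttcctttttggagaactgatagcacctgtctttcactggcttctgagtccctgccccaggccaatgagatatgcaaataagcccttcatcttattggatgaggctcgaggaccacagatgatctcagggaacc
Thrb, downstream start: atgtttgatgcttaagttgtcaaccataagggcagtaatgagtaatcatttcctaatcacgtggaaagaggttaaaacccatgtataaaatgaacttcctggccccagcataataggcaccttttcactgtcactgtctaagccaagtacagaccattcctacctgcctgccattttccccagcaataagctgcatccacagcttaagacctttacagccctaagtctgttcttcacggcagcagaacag

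The 10 genes have 16 starts in RefSeq, and TAATCC, searched on both strands, lay in 5 of these 16 windows, which belong to 5 of the 10 genes. It lay in 6.25% of all 32851 RefSeq windows of the same length. Counted back from the start, the motif began at -94 and -21 in Crx, at -139 in Samd7 and at -193 and -67 in Samd11. It also occurred at -211 of the third start of Otx2 and at -46 of the upstream start of Thrb. TGCTGA, part of the NRL recognition element, lay in 3 of the 16 windows against 16.1% of all windows. AGGTCA, the core site of many nuclear receptors, lay in 2 against 14.0%, and CAGATG, an E-box of NEUROD factors, in 3 against 14.4%. None of these motifs overlapped another in the windows shown.

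The rod specifiers Nrl and Nr2e3 were high in rods, and their level in cones, bipolars, Müller glia and amacrine cells stayed below that expected from rod RNA. Nrl (ENSMUSG00000040632, chr14:55518978-55524981) encodes the leucine zipper factor that sets the rod fate. Its level in rod-like nuclei, in counts per 1000000 UMIs of the class (CPM), was 877 (853 to 902), 733 (707 to 760) and 627 (609 to 645) in control, 2-week and 4-week libraries. The control was highest, the 4-week library lowest, and the 3 intervals did not overlap. Relative to the control Nrl was 0.835 (0.798 to 0.875) times as high at 2 weeks and 0.714 (0.686 to 0.744) at 4 weeks. The 5 rod genes, at 20198, 16883 and 14953 CPM in the same nuclei, followed the same order. In cone-like nuclei Nrl stood at 135, 51.3 and 77.3 CPM, where rod RNA predicted 150, 55.5 and 86.8. Bipolar-like nuclei held 126, 42.4 and 47.2 CPM of Nrl, against 132, 46.9 and 56.7 predicted. Each value was below its prediction, but only the interval of bipolars at 4 weeks (41.6 to 53.3) lay wholly under it.

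Nr2e3 (ENSMUSG00000032292, chr9:59942771-59960834) encodes the nuclear receptor that NRL induces and that silences cone genes in rods. Rod-like nuclei held 778 (755 to 802), 797 (770 to 826) and 642 (624 to 661) CPM of Nr2e3. Control and 2-week rods overlapped, and the 4-week level was 0.826 (0.792 to 0.861) times the control. In cone-like nuclei Nr2e3 was at 0.606, 0.970 and 0.655 of the level predicted from rod RNA, and in bipolar-like nuclei at 0.559, 0.693 and 0.666. A gene on the other strand, Gm7616, overlaps Nr2e3, and how strand was used in counting is not given in the sources used here.

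Crx, Otx2 and Neurod1 were shared between rods, cones and bipolars, each with its own order of classes. Crx (ENSMUSG00000041578, chr7:15865947-15879955) was as high in cones as in rods within counting error. Rod-like nuclei held 541 (521 to 560), 566 (543 to 590) and 513 (497 to 530) CPM, and cone-like nuclei 517 (478 to 559), 550 (504 to 599) and 498 (460 to 537). The cone over rod ratio was 0.957 (0.878 to 1.04), 0.972 (0.882 to 1.07) and 0.969 (0.891 to 1.05), so these counts leave room for a difference of about the width of those intervals. Bipolar-like nuclei had less Crx, at 168, 159 and 144 CPM, which was still 2.06, 4.39 and 3.09 times the level predicted from rod RNA. In Müller-like nuclei, the glia of the retina, Crx was at 0.730, 0.595 and 0.736 of that prediction.

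Otx2 (ENSMUSG00000021848, chr14:48656781-48667644) was about as high in bipolars as in rods. Its level in rod-like nuclei was 276 (262 to 290), 276 (260 to 293) and 277 (265 to 289) CPM, a spread well within the intervals. Bipolar-like nuclei held 270 (257 to 283), 307 (289 to 325) and 275 (261 to 289) CPM, or 6.52, 17.4 and 11 times the prediction from rod RNA. Rods and bipolars could be told apart only in the 2-week library, where the bipolar over rod ratio was 1.11 (1.02 to 1.21). Cone-like nuclei were lower, at 160 (139 to 184), 181 (155 to 210) and 161 (140 to 185) CPM, and the bipolar over cone ratio was 1.69, 1.70 and 1.70. Otx2 in the 2-week amacrine-like nuclei was at 0 of 487222 UMIs, with the limit for a count of 0 set at 3 UMIs, or 6.16 CPM.

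Neurod1 (ENSMUSG00000034701, chr2:79452637-79456636), a helix-loop-helix factor of photoreceptor survival, was the gene past 1.5-fold between libraries in rods. Rod-like nuclei held 796 (773 to 820), 1332 (1296 to 1368) and 878 (857 to 900) CPM. The 2-week library stood apart, with a ratio to control of 1.67 (1.61 to 1.74), and the 4-week level was 0.659 (0.636 to 0.684) times the 2-week level. The ratio at 2 weeks lay at percentile 93.2 of all genes measured in rods. Across rod-like clusters of at least 50 nuclei, Neurod1 ranged from 747 to 1002, from 1132 to 1449 and from 801 to 953 CPM in the 3 libraries. Every 2-week cluster was thus above every cluster of the other libraries. With each nucleus thinned to 500 UMIs, 31.6%, 46.5% and 35.0% of rod-like nuclei had a Neurod1 UMI, and without thinning the shares were 59.6%, 59.0% and 58.3%. In Müller-like nuclei, a class that should lack Neurod1, the thinned share was 4.08%, 2.17% and 0.885% and the unthinned share 23.5%, 6.16% and 7.08%, at median depths of 3656, 2474 and 3436 UMIs. The 2-week rods also had the lowest median depth and mitochondrial share given above, and the part of these in the difference was not tested.

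Cones matched rods in Neurod1 more closely than bipolars did. Cone-like nuclei held 930 (877 to 985), 1091 (1026 to 1159) and 842 (793 to 893) CPM, and the 2-week library was again highest, at 1.17 (1.08 to 1.28) times the control. The cone over rod ratio was 1.17 (1.09 to 1.25), 0.819 (0.766 to 0.876) and 0.959 (0.899 to 1.02), so the order of the classes was not the same in each library. Bipolar-like nuclei had 256, 291 and 226 CPM, or 2.14, 3.41 and 2.85 times the prediction from rod RNA.

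**Figure D1:**
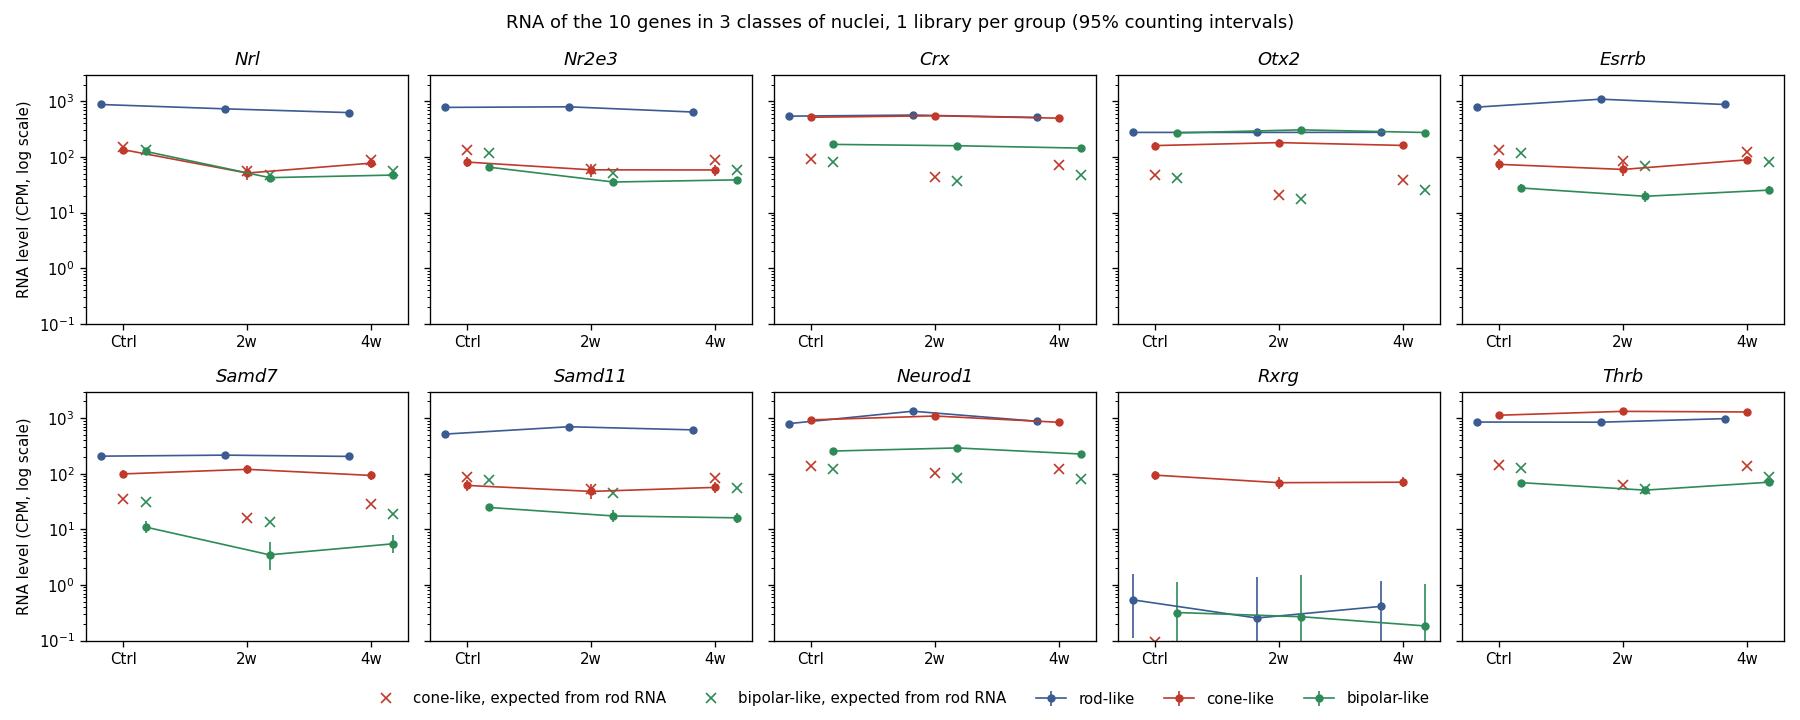
RNA level (CPM, log scale) of each of the 10 genes in rod-like, cone-like and bipolar-like nuclei of the control, 2-week and 4-week libraries, 1 library per group, with 95% counting intervals as bars. Crosses mark the level expected from rod RNA, and Nrl in cones and bipolars lies on or just under them, while Crx, Otx2 and Neurod1 lie above (most crosses of Rxrg fall under the axis).

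Esrrb and Samd11 were rod genes in these data, and Samd7 was shared by rods and cones. Esrrb (ENSMUSG00000021255, chr12:86361117-86521628) stood at 786 (763 to 810), 1093 (1061 to 1127) and 877 (855 to 898) CPM in rod-like nuclei. It was highest at 2 weeks, 1.39 (1.33 to 1.45) times the control, which is short of 1.5-fold. In cone-like nuclei it reached 0.547, 0.720 and 0.730 of the level predicted from rod RNA, and in bipolar-like nuclei 0.233, 0.280 and 0.319.

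Samd11 (ENSMUSG00000096351, chr4:156246966-156256011) showed the same order of libraries. Its level in rod-like nuclei was 516 (497 to 535), 700 (674 to 726) and 615 (598 to 634) CPM, which is 1.36 (1.29 to 1.43) and 1.19 (1.14 to 1.25) times the control. Cone-like nuclei held 61.6, 48.1 and 56.8 CPM, or 0.698, 0.909 and 0.666 of the prediction, and bipolar-like nuclei 24.7, 17.4 and 16.1 CPM. Noc2l lies on the other strand across part of Samd11, and Gm40483 and Gm33590 overlap Esrrb and Samd7 in the same way.

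Samd7 (ENSMUSG00000051860, chr3:30746293-30767174) kept a near constant level in rods, at 207 (195 to 219), 216 (202 to 231) and 205 (195 to 216) CPM. All 3 intervals overlapped. In cone-like nuclei it was at 99.2 (82.5 to 118), 120 (99.3 to 144) and 93.2 (77.4 to 111) CPM, which is 2.80, 7.36 and 3.28 times the prediction from rod RNA. Bipolar-like nuclei held only 69, 13 and 30 UMIs of Samd7, at 0.354, 0.252 and 0.296 of the prediction. Within rods, 1 cluster led by Fgf2os, Edn2 and Cebpd had more Samd7 than the rest at 2 weeks, by 1.76-fold (1.52 to 2.03). The same ratio was 1.27 (0.897 to 1.76) in the control and 1.27 (1.03 to 1.54) at 4 weeks, and the cluster numbered 121, 1041 and 362 nuclei.

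The cone receptors Rxrg and Thrb differed in how far they were restricted to cones. Rxrg (ENSMUSG00000015843, chr1:167598362-167639623) gave 118, 66 and 93 UMIs in cone-like nuclei, or 94.4 (78.1 to 113), 69.0 (53.4 to 87.8) and 70.4 (56.9 to 86.3) CPM. The far more numerous rod-like nuclei gave 3, 1 and 3 UMIs and bipolar-like nuclei 2, 1 and 1. The cone over rod ratio was 175 (58.4 to 860), 272 (47.2 to 10913) and 171 (56.9 to 846), wide because so few rod UMIs stand below the line. Rxrg in cones was lower in both WIF1 libraries, at 0.732 (0.533 to 0.997) and 0.746 (0.563 to 0.988) times the control, with intervals that end just short of 1.

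Thrb (ENSMUSG00000021779, chr14:17659225-18040097) was abundant in both photoreceptor classes. Cone-like nuclei held 1128 (1070 to 1188), 1324 (1252 to 1399) and 1291 (1230 to 1353) CPM, and rod-like nuclei 850 (826 to 875), 845 (817 to 874) and 979 (957 to 1002) CPM. Cones were above rods in each library, by 1.33 (1.25 to 1.41), 1.57 (1.47 to 1.67) and 1.32 (1.25 to 1.39). Müller-like nuclei followed with 340, 314 and 311 CPM, or 2.45, 7.55 and 3.19 times the prediction from rod RNA, and amacrine-like nuclei with 122, 140 and 116 CPM. Of these 5 classes bipolar-like nuclei came last with 69.1, 50.7 and 70.4 CPM, below the prediction as a class. These counts do not separate the isoforms of Thrb, and LOC115488350 overlaps it on the other strand.

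Counted over the classes, most of the genes were lower outside rods. A gene was counted where the ratio passed 1.5-fold and the side with more RNA had at least 30 UMIs. From rods to cones, 1 of the 10 genes was at least 1.5-fold higher and 6 were lower in the control, beside 17.0% and 25.9% of all genes measured. At 2 weeks 2 were higher and 6 lower (14.8% and 28.4% of all genes), and at 4 weeks 1 and 6 (16.4% and 26.0%). Rxrg was the gene higher in cones in each library, and Thrb passed 1.5-fold at 2 weeks only. In each library bipolars had 0 of the 10 genes higher than rods and 8 lower, beside 28.8% higher and 27.9% lower of all genes for the control, 27.9% and 31.1% for the 2-week library, and 28.2% and 29.1% for the 4-week library. Against cones, bipolars had 1 gene higher in each library, Otx2, and 7, 8 and 9 lower. All genes gave 32.1%, 31.7% and 29.6% higher and 21.8%, 20.7% and 20.9% lower in that comparison.

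The next question was how the 10 genes differed between the WIF1 libraries and the control within each class. In rods 9 of the 10 genes had at least 30 UMIs in the higher library. At 2 weeks 1 of the 9, Neurod1, was past 1.5-fold higher, beside 11.6% of all genes, and 0 were lower, beside 6.67%, so the share was near the background. At 4 weeks 0 were higher and 0 lower, where all genes gave 2.35% and 4.63%. Between 4 and 2 weeks 0 were higher (7.58% of all genes) and 1, Neurod1, was lower (12.3%). In either direction 18.3%, 6.99% and 19.9% of all genes passed in the 3 comparisons. The median log2 ratio of the 9 was 0.06, 0.00 and -0.18 in the 3 comparisons, and that of all genes 0.04, 0.04 and -0.04. The comparisons share libraries, so they are not independent of each other.

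In cones all 10 genes were measured, and Nrl, whose level there lay at that expected from rod RNA, gave every value past 1.5-fold. At 2 weeks 0 genes were higher (10.1% of all genes) and Nrl was lower (13.7%), at 0.379 (0.270 to 0.524) of the control. At 4 weeks 0 were higher (5.40%) and Nrl was again lower (8.23%), at 0.572 (0.443 to 0.735). From 2 to 4 weeks Nrl was higher (10.7%), by 1.51 (1.06 to 2.16), and 0 genes were lower (7.75%). That ratio ranged from 1.19 to 1.55 over the alternatives that gave a value, and the call ended in 5 settings. It also ended with the expected rod counts subtracted, which left no ratio for Nrl. The call at 4 weeks ended at 0.747 with classes taken from marker scores. In either direction 23.8%, 13.6% and 18.4% of all genes passed in cones. The rod genes in the same cone-like nuclei were at 3458, 1278 and 2072 CPM, the same order. With the expected rod counts subtracted Nrl had nothing left, and Samd7 then passed 1.5-fold instead, at 1.63 times the control at 2 weeks and 0.623 from 2 to 4 weeks, where its unsubtracted ratio at 2 weeks was 1.21 (0.933 to 1.58). Among the genes with cone levels above the prediction, Thrb was at 1.17 (1.09 to 1.27) and 1.14 (1.07 to 1.23) times the control, and Crx at 1.06 (0.946 to 1.19) and 0.962 (0.861 to 1.07).

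In bipolars the genes past 1.5-fold between a WIF1 library and the control were Nrl, Nr2e3, Samd7 and Samd11, all under the expectation from rod RNA. At 2 weeks 0 of 9 were higher (7.78% of all genes) and 3 lower (8.42%): Nrl at 0.336 (0.281 to 0.399), Nr2e3 at 0.542 (0.442 to 0.661) and Samd7 at 0.317 (0.161 to 0.578) of the control. At 4 weeks 0 were higher (1.57%) and 4 lower (3.96%), Nrl at 0.374 (0.323 to 0.431), Nr2e3 at 0.593 (0.50 to 0.701), Samd7 at 0.501 (0.315 to 0.779) and Samd11 at 0.654 (0.497 to 0.855). With the expected rod counts subtracted, 0 genes were past 1.5-fold lower in bipolars at either time, since those genes had nothing left, and Neurod1 was past it at 2 weeks, at 1.51 against 1.14 without subtraction. With called doublets kept Nrl alone stayed past 1.5-fold, at 0.506 and 0.527. Nr2e3 was then at 0.784 and 0.702, Samd7 at 0.813 and 0.854, and Samd11 at 4 weeks at 1.04 times the control. From 2 to 4 weeks 1 gene, Samd7, was higher (7.37%) with an interval that holds 1, and 0 were lower (8.64%). In either direction 16.2%, 5.53% and 16.0% of all genes passed in bipolars. Otx2, the gene with the highest ratio to the prediction, was at 1.14 (1.05 to 1.23) and 1.02 (0.948 to 1.09) times the control.

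**Figure D2:**
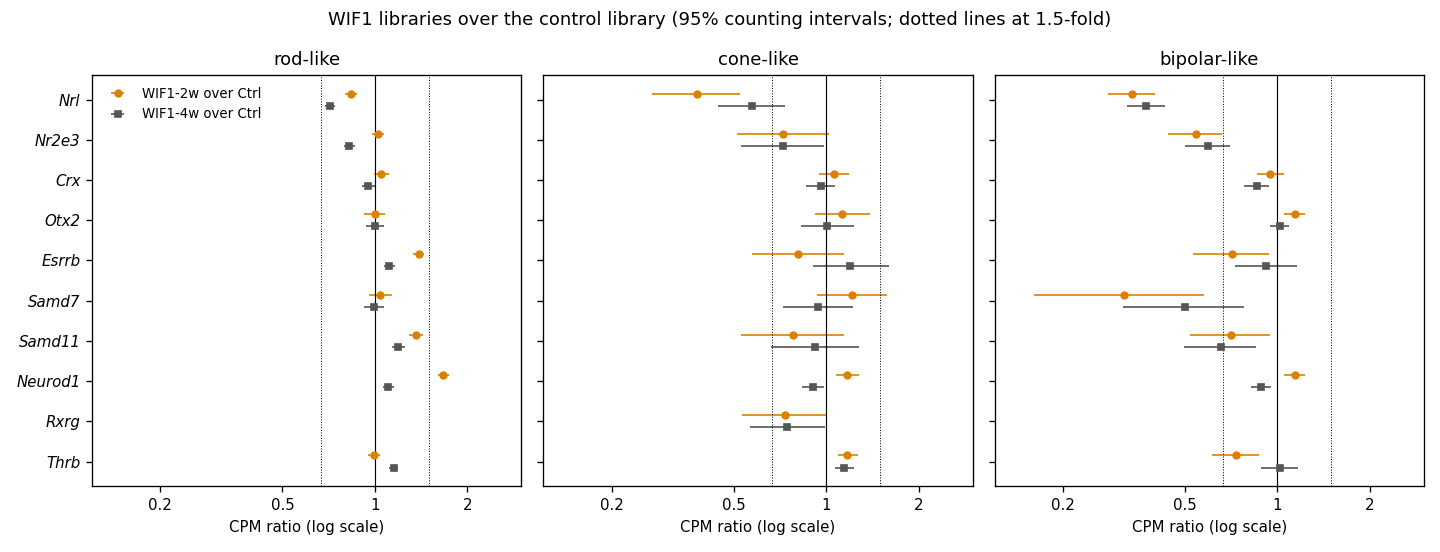
CPM ratio of each WIF1 library to the control (log scale) for the 10 genes in rod-like, cone-like and bipolar-like nuclei, with 95% counting intervals as bars and dotted lines at 1.5-fold. Neurod1 at 2 weeks is the only point beyond the upper line, at 1.67 in rods, and Nrl in cones and bipolars lies below the lower line in both libraries.

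Rod-like nuclei varied in Nrl from cluster to cluster. Over clusters of at least 50 nuclei Nrl ranged from 628 to 1146, from 664 to 849 and from 465 to 870 CPM in the 3 libraries. In each library the highest value came from the cluster with the most rod gene RNA, which held 26145, 23526 and 22273 CPM of the 5 rod genes. Thrb was at the low end in that cluster, at 727, 687 and 858 CPM against class levels of 850, 845 and 979. Crx ranged only from 420 to 568, 511 to 614 and 414 to 584 CPM over the clusters. Esrrb ranged from 640 to 954 CPM in the control and 1031 to 1268 at 2 weeks, so its clusters did not overlap between these libraries, but at 4 weeks it spanned 737 to 1120.

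Cones were split by their opsin, since Thrb and Rxrg are known for their part in that choice. Cone-like nuclei with at least 3 opsin UMIs were mainly Opn1sw in 210, 253 and 268 nuclei and mainly Opn1mw in 165, 214 and 184. Of all cone-like nuclei with at least 3 opsin UMIs, 44, 40 and 54 had an Opn1sw share between 0.4 and 0.6. These include 5, 6 and 3 nuclei with equal counts of the opsins, which are in neither group. Samd7 differed most between the kinds of cone. It stood at 38.9 (25.4 to 57), 48.4 (31.0 to 71.9) and 49.7 (35.0 to 68.5) CPM in mainly Opn1sw nuclei, and at 164 (132 to 202), 198 (159 to 244) and 149 (119 to 185) CPM in mainly Opn1mw nuclei. The groups did not overlap in any library, with ratios of 0.237 (0.147 to 0.370), 0.244 (0.148 to 0.387) and 0.333 (0.219 to 0.496). Rod gene RNA was a little higher in the mainly Opn1sw nuclei, at 3356, 1400 and 2089 CPM against 2612, 1061 and 1802.

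Thrb was lower in mainly Opn1sw cones, by a smaller step, with ratios of 0.780 (0.700 to 0.869), 0.862 (0.770 to 0.964) and 0.815 (0.739 to 0.898). Neurod1 behaved alike, at 0.870 (0.773 to 0.979), 0.878 (0.776 to 0.995) and 0.840 (0.744 to 0.948). Rxrg did not separate the kinds of cone at this depth, with 1.38 (0.931 to 2.05), 1.36 (0.799 to 2.35) and 1.18 (0.765 to 1.85). Crx, at 0.904 (0.770 to 1.06), 0.850 (0.712 to 1.01) and 0.916 (0.782 to 1.07), did not either. Samd11 went the other way in the control and at 2 weeks, by 2.16 (1.23 to 3.95) and 2.68 (1.32 to 5.88). At 2 weeks so did Esrrb, by 3.84 (1.90 to 8.58), and Nrl, by 2.34 (1.20 to 4.83), while in the other libraries their intervals held 1. These ratios rest on few UMIs, and all 3 genes were within the level predicted from rod RNA in cones as a whole.

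**Figure D3:**
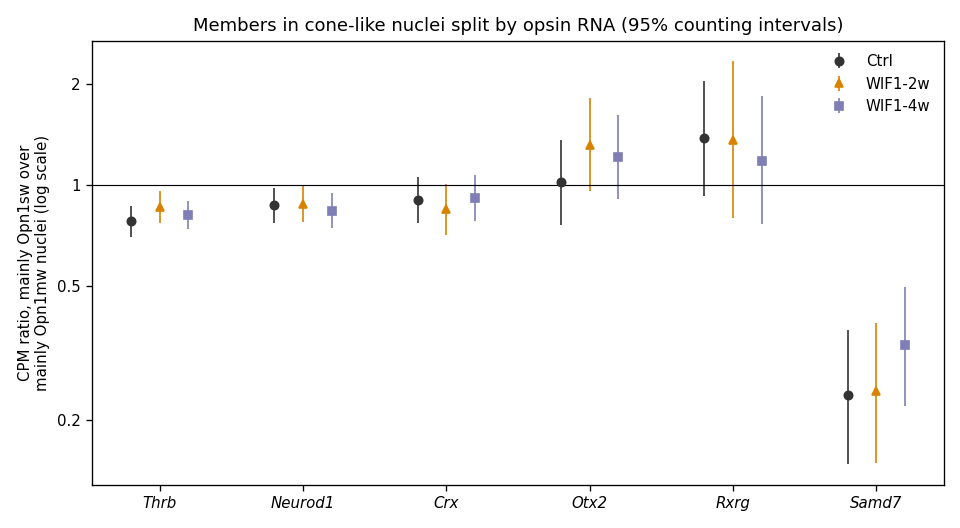
Ratio of CPM (log scale) in cone-like nuclei with mainly Opn1sw over those with mainly Opn1mw opsin RNA, for 6 of the genes in the 3 libraries, with 95% counting intervals as bars. Samd7 lies far below 1 in all 3 libraries, at 0.237, 0.244 and 0.333, while the intervals of Rxrg, Crx and Otx2 cross 1.

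Bipolar nuclei differed in Thrb by type far more than the class level shows. Rod bipolar-like nuclei, which receive rod input, held 15.6 (10.8 to 21.8), 13.4 (8.19 to 20.7) and 9.13 (5.50 to 14.3) CPM. ON cone bipolar-like nuclei held 64.8, 34.4 and 63.0 CPM and OFF cone bipolar-like nuclei 85.8 (72.2 to 101), 80.6 (62.3 to 103) and 121 (102 to 141). The rod bipolar over OFF cone bipolar ratio was 0.182, 0.166 and 0.0757, with rod gene RNA at 2734, 1073 and 1213 CPM in the former and 3638, 1140 and 1444 in the latter. By cluster the spread was wider. A bipolar-like cluster of no named type, led by Cntn5, Adarb2 and Tenm2 (cluster 26), held 378 (309 to 458), 290 (193 to 419) and 402 (305 to 520) CPM. In an OFF cone bipolar-like cluster led by Grik1 (cluster 19) Thrb was at 113 (89.7 to 140), 144 (109 to 187) and 256 (214 to 304) CPM, highest at 4 weeks with an interval clear of the others. The other OFF cone bipolar-like clusters were lower, at 74.9, 19.2 and 29.9 CPM (cluster 12) and 50, 27.0 and 31.1 CPM (cluster 20), and at 4 weeks both were under the ON level of 63.0, so the OFF level rests on cluster 19.

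The highest Thrb level among nuclei with bipolar markers was in a cluster that was left without a class name. It is led by Adarb2, Cntn5, Brinp3 and Cngb3, has 6 bipolar markers enriched, and counts 75, 69 and 79 nuclei (cluster 25). Thrb there was 782 (679 to 896), 916 (766 to 1087) and 925 (809 to 1051) CPM, close to the rod level and 11.3 (9.53 to 13.4), 18.1 (14.4 to 22.7) and 13.1 (11.1 to 15.5) times that of bipolar-like nuclei. Rxrg was at 0 UMIs in it in all 3 libraries. Its Otx2 was at 1.48 (1.21 to 1.80), 0.866 (0.609 to 1.20) and 1.22 (0.966 to 1.52) times the bipolar-like level, and its Nrl at 0.868, 1.32 and 1.27 times with intervals that hold 1.

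Otx2 was even across bipolar types by comparison. Its level over bipolar-like clusters ran from 240 to 300, from 256 to 374 and from 204 to 328 CPM in the 3 libraries. Rod bipolar-like nuclei had somewhat less Otx2 than ON cone bipolar-like nuclei in each library, at ratios of 0.819 (0.718 to 0.934), 0.821 (0.706 to 0.956) and 0.798 (0.697 to 0.914). They also had less Neurod1, at 0.608 (0.531 to 0.697), 0.758 (0.649 to 0.887) and 0.643 (0.556 to 0.743).

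**Figure D4:**
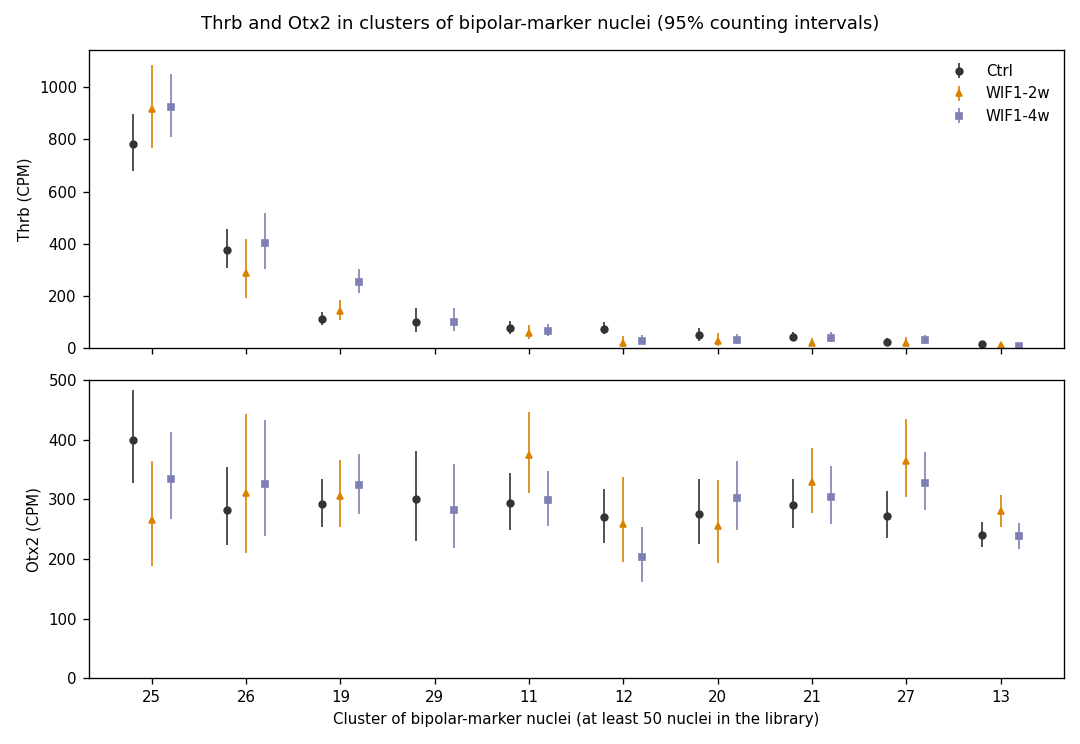
Level (CPM) of Thrb, upper panel, and Otx2, lower panel, in each cluster of nuclei with bipolar markers that has at least 50 nuclei in a library, with 95% counting intervals as bars and clusters ordered by Thrb in the control. Thrb ranges from 15.6 to 782 CPM over the clusters of the control, whereas Otx2 lies between 240 and 400.

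The genes whose levels were most like each of the 10 were found over 20 pairs of class and library, among 13965 genes, by Pearson's r of log2 CPM. These pairs share libraries and rod RNA, so r is given as a description. Nrl was close to Gnat1 (0.971) and Kcnj14 (0.966), and Nr2e3 most like Gm11342 (0.979), Pde6a (0.969) and Pde6b (0.969). Esrrb was most like Pde6a (0.970) and Samd11 (0.964), and Samd11 most like Gramd2 (0.967) and Esrrb (0.964). Crx was nearest to Gm10544 (0.975), Map1b (0.973) and Unc119 (0.973), and Neurod1 to Crx itself (0.967), Unc119 (0.953) and Gucy2e (0.951). Samd7 was nearest to Dpysl3 (0.952), Grk1 (0.946) and Pbx3 (0.945). Rxrg was nearest to Fzd10 (0.978), Mcf2 (0.955) and the cone channel gene Cnga3 (0.945). The nearest genes of Thrb, Adamts3 (0.935), Calcoco1 (0.908) and Kmt2a (0.905), and of Otx2, Fam78b (0.933), Zfp385b (0.835) and D16Ertd472e (0.834), were less close.

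Other genes of the circuit were described from lists of known genes. Over all genes 11.6% were past 1.5-fold higher and 6.67% lower in rods at 2 weeks, and 2.35% and 4.63% at 4 weeks. Of 32 rod genes in rods, 0 were past 1.5-fold higher and 2 lower at 2 weeks, Rbp3 at 0.616 and Gucy2f at 0.658, and 0 higher and 4 lower at 4 weeks, so the lower share at 2 weeks was near the background. Pde6g, a subunit of the rod phosphodiesterase, was among the latter, at 1684 against 2720 CPM or 0.619 (0.605 to 0.634). The median log2 ratio of the list was -0.15 and -0.19, where all genes had 0.08 and 0.03. The same 32 genes in bipolars were lower in 32 of 32 cases at both times, 27 and 22 of them past 1.5-fold, beside 8.42% and 3.96% of all genes. In cones 18 and 7 were past 1.5-fold lower, beside 13.7% and 8.23%.

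Of 19 cone genes, 18 had enough UMIs in cones. At 2 weeks 1, Arr3, cone arrestin, was past 1.5-fold higher (10.1% of all genes), at 11337 against 6981 CPM or 1.62 (1.58 to 1.67), and 0 were lower (13.7%). At 4 weeks 0 were higher (5.40%) and 2 lower (8.23%), Pde6h at 0.632 (0.609 to 0.656) and Gngt2 at 0.665 (0.630 to 0.702). In rods 2 cone genes were past 1.5-fold higher and 4 lower of 16 at 2 weeks, beside 11.6% and 6.67% of all genes. Gnb3, a G protein subunit of cones and ON bipolars, was at 335 CPM against 83.3 in the control, or 4.02-fold (3.61 to 4.48), and at 121 CPM at 4 weeks. Among those lower at 2 weeks were Kcne2 at 0.342 (0.136 to 0.755) and Ccdc136 at 0.567 (0.388 to 0.814). At 4 weeks 0 of 16 cone genes were higher and 4 lower in rods (2.35% and 4.63% of all genes), with Pde6h at 0.482 (0.437 to 0.532). The median log2 ratio of the list in rods was -0.14 at both times, where all genes had 0.08 and 0.03.

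Among 39 other transcription factors of photoreceptors and bipolars, 23 had enough UMIs in rods at 2 weeks, of which 5 were past 1.5-fold higher and 3 lower, beside 11.6% and 6.67% of all genes. Pou2f2 was at 2.11 (1.26 to 3.62) and the estrogen-related receptor gene Esrra at 2.03 (1.52 to 2.72), while Isl1 was at 0.529 (0.316 to 0.857) and Neurod4, a paralog of Neurod1, at 0.541 (0.372 to 0.776). At 4 weeks 2 of 26 were higher and 0 lower (2.35% and 4.63%). In bipolars 2 of 32 were higher and 3 lower at 2 weeks (7.78% and 8.42%). Among them were Mef2c at 0.506 (0.472 to 0.543) and Vsx1, a factor of cone bipolars, at 0.606 (0.527 to 0.695). At 4 weeks 1 was higher and 2 lower (1.57% and 3.96%), with Vsx1 at 0.613 (0.543 to 0.692). In cones 3 of 16 were higher and 0 lower at 2 weeks (10.1% and 13.7%), and 0 of 17 higher and 1 lower at 4 weeks (5.40% and 8.23%).

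Of 25 genes of the Polycomb system, with which SAMD7 and SAMD11 act, 22 had enough UMIs in rods. At 2 weeks 1 was higher and 0 lower (11.6% and 6.67% of all genes), Cbx8 at 32.0 against 19.1 CPM or 1.68 (1.28 to 2.19), and at 4 weeks 1 was higher and 0 lower (2.35% and 4.63%), Cbx7 at 1.57 (1.24 to 1.99). In cones 3 of 18 were higher and 2 lower at 2 weeks (10.1% and 13.7%), and in bipolars 4 of 24 were higher and 0 lower (7.78% and 8.42%), with Pcgf1 at 1.97 (1.34 to 2.91) and Pcgf2 at 1.84 (1.48 to 2.28). At 4 weeks 0 were past 1.5-fold in either direction in cones (19 measured, beside 13.6% of all genes) and bipolars (23 measured, beside 5.53%).

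Open chromatin near the genes was read from peaks that were called in each library on its own. Merged over libraries, 66 regions lay within 10 kb of a start of the 10 genes, of which 42 had a peak in all 3 libraries and could be compared. Values are counts per 1000000 (ATAC CPM) of the counts in the 44580 regions, out of 117835, that had a peak in every library. Neurod1 had 8 such shared regions, Thrb 7, Otx2 6, Nrl 5, Nr2e3 and Samd7 4 each, Crx and Esrrb 3 each, and Samd11 and Rxrg 1 each. Rod chromatin in the nuclei of other classes was not estimated.

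At the start of Nrl (chr14:55523765-55524497, the region that covers most of the window printed above) rod-like nuclei had 45.3 (41.8 to 49.0), 35.1 (33.0 to 37.3) and 40.0 (38.0 to 42.2) ATAC CPM. Cone-like nuclei had 3.31, 9.97 and 2.30, from 5, 29 and 6 counts, and bipolar-like nuclei 3.23, 2.75 and 4.73. Rods were above both classes in each library. The most open shared region of Nrl in rods lay inside the gene, 2999 bases after the start, with 90.6, 103 and 105 in rods and 26.5, 19.9 and 20.7 in cones. At the start of Nr2e3 (chr9:59949685-59950501) rods had 63.6, 52.6 and 54.2, cones 17.9, 5.50 and 14.2 and bipolars 8.93, 7.70 and 5.31.

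The starts of Crx and Neurod1 were open in all 3 classes. Crx (chr7:15879503-15880340) had 101 (96.1 to 107), 89.6 (86.2 to 93.0) and 104 (101 to 108) in rods, 66.2, 78.7 and 58.7 in cones and 51.4, 53.5 and 54.3 in bipolars. Müller-like nuclei had 11.4, 11.8 and 32.4 there. Neurod1 (chr2:79456375-79457262) had 129 (123 to 135), 150 (145 to 154) and 144 (140 to 148) in rods, 146, 134 and 129 in cones and 92.5, 94.6 and 114 in bipolars. The 2-week rods, with 1.67 times the control level of Neurod1 RNA, thus had 1.16 (1.10 to 1.23) times the open chromatin at its start. A region 2506 bases after the start was less open in those nuclei, at 0.608 (0.536 to 0.691) of the control, as was the region centred at -4080, at 0.578 (0.455 to 0.736). Of all shared regions measured in rods, 21.4% were past 1.5-fold lower at 2 weeks, so such values are common in that library.

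Samd7 and Samd11, whose windows hold the CRX and OTX2 motif, differed in cones. The start of Samd7 (chr3:30745784-30746693) had 39.0, 44.2 and 37.5 in rods and 45.7, 34.7 and 26.1 in cones, and the cone over rod ratio of 1.17 (0.897 to 1.51), 0.786 (0.636 to 0.963) and 0.696 (0.537 to 0.889) stayed within 1.5-fold. Bipolar-like nuclei had 1.68, 2.57 and 2.89 there, from 13, 28 and 30 counts. At the start of Samd11 (chr4:156255004-156255929) rods had 127, 126 and 133, cones 50.3, 53.3 and 59.9 and bipolars 11.1, 15.3 and 15.7. Esrrb, at its second start (chr12:86421159-86422059), had 64.7, 67.3 and 77.5 in rods, 33.8, 24.1 and 29.2 in cones and 8.67, 6.32 and 7.81 in bipolars.

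The cone receptors had starts that were more open in cones than in rods. At the upstream start of Rxrg (chr1:167598025-167598980) cones had 23.2 (16.1 to 32.2), 32.7 (26.4 to 39.9) and 43.4 (35.7 to 52.1), rods 1.89, 1.75 and 1.23, and bipolars 11.5, 21.2 and 13.3. The cone over rod ratio was 12.3 (7.17 to 21.2), 18.6 (13.2 to 26.6) and 35.2 (24.6 to 51.3). Bipolars were thus open at this start in each library although they gave almost no Rxrg RNA. Thrb had a start of each kind. Its upstream start (chr14:17660427-17661338) had 141, 115 and 129 in rods, 75.5, 73.6 and 87.1 in cones and 43.1, 44.9 and 39.7 in bipolars. Its downstream start (chr14:17981422-17982344), which covers 222 of the 250 bases printed above, had 3.92, 1.26 and 2.12 in rods and 19.9 (13.4 to 28.3), 20.3 (15.4 to 26.2) and 13 (9.04 to 18.2) in cones. There cones exceeded rods by 5.06 (3.13 to 8.05), 16.1 (10.6 to 24.9) and 6.16 (3.98 to 9.36), and bipolars had 2.72, 0.641 and 0.482.

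At the third start of Otx2 (chr14:48664627-48665484) rods had 28.2, 20.4 and 23.8, cones 31.8, 16.2 and 16.1 and bipolars 12.9, 9.07 and 7.81. Bipolars, which matched rods in Otx2 RNA, were less open here, by a ratio to rods of 0.459 (0.364 to 0.573), 0.445 (0.356 to 0.551) and 0.328 (0.258 to 0.412). A region 7493 bases after the fourth start (chr14:48654746-48655736) had the reverse order, with 15.9, 8.70 and 10.4 in bipolars and 6.76, 3.18 and 5.01 in rods.

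**Figure D5:**
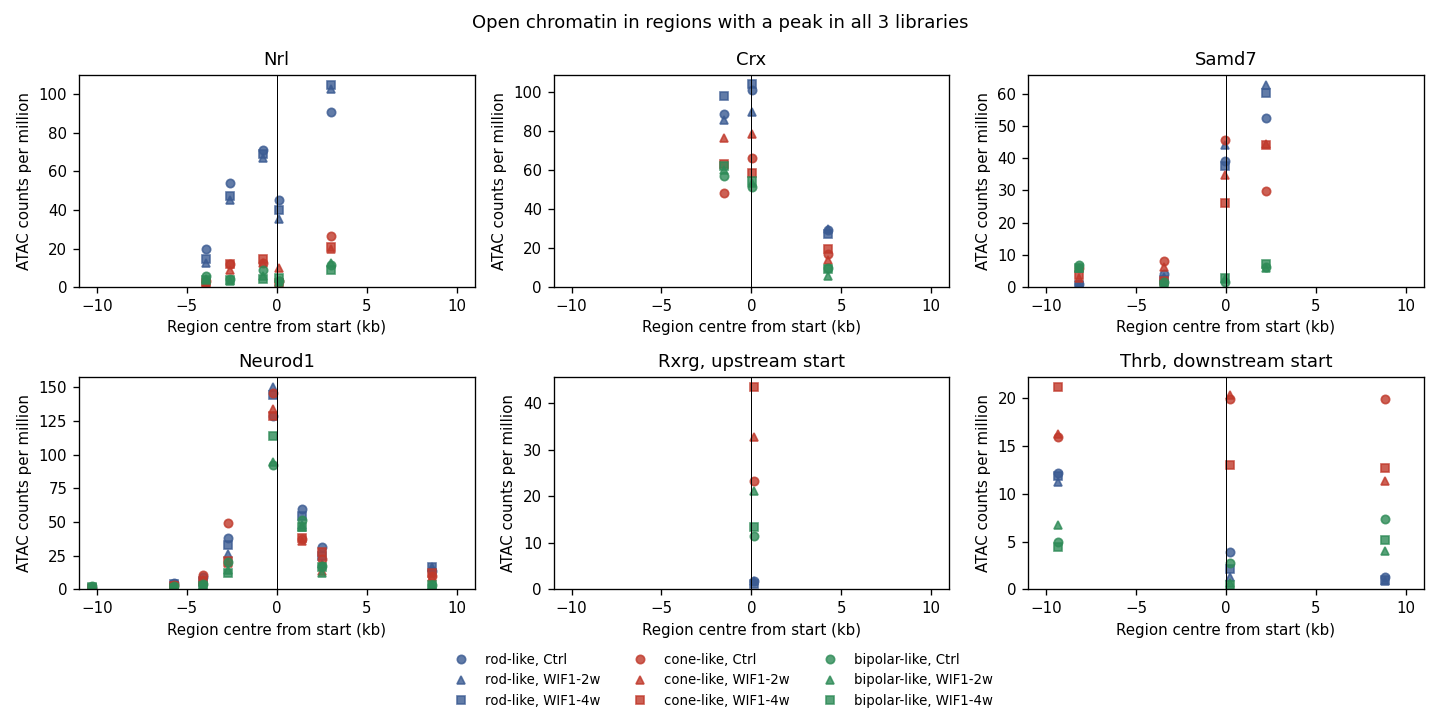
Open chromatin (ATAC CPM) of the regions with a peak in all 3 libraries, by distance of the region's centre from the gene start in kb, for Nrl, Crx, Samd7, Neurod1, the upstream start of Rxrg and the downstream start of Thrb. Colours mark the class and symbols the library, and rods lie highest at the start of Nrl (45.3, 35.1 and 40.0), while cones lie highest at the starts of Rxrg and Thrb shown.

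Over the shared regions with at least 30 counts, most that passed 1.5-fold between rods and another class were more open in rods. Cones had 3, 3 and 4 regions at least 1.5-fold above rods in the control, 2-week and 4-week libraries, beside 12.3%, 19.8% and 15.1% of all shared regions, and 21, 18 and 17 below, beside 27.8%, 21.8% and 26.1%, of 37, 37 and 39 measured. Bipolars had 5, 5 and 4 of 41 above rods (44.5%, 46.0% and 43.4% of all) and 30, 32 and 32 below (23.2%, 23.4% and 25.1%). Against cones, bipolars had 3, 5 and 6 above (45.6%, 42.3% and 44.1%) and 15, 17 and 24 below (11.5%, 16.3% and 15.7%), of 25, 31 and 37.

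Between libraries most of the shared regions measured stayed within 1.5-fold, and the counts past it are given beside the shares of all regions. In rods 0 were higher and 8 of 38 lower at 2 weeks, where all regions gave 8.09% and 21.4%, a lower share close to that of the 38, and 0 higher and 4 of 38 lower at 4 weeks (2.76% and 14.4%). From 2 to 4 weeks 4 of 41 were higher and 0 lower (13.5% and 6.62%). In cones 1 was higher and 5 lower of 24 at 2 weeks (13.3% and 8.62%), 1 and 5 of 27 at 4 weeks (8.18% and 8.07%), and 4 and 1 of 30 from 2 to 4 weeks (6.61% and 11.4%). In bipolars 2 were higher and 5 lower of 34 at 2 weeks (8.04% and 11%), 2 and 6 of 36 at 4 weeks (2.61% and 11.1%), and 4 and 2 of 36 from 2 to 4 weeks (4.26% and 10.5%). The cone regions lower at both times included the one centred at -2701 from Neurod1, at 49.0, 19.6 and 21.1 ATAC CPM, and the third start of Otx2. The cone region higher at 4 weeks was the upstream start of Rxrg, at 1.87 (1.27 to 2.82) times the control, while Rxrg RNA in cones was at 0.746 times the control.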

How the data were processed

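Gene expression and open chromatin were read from the deposited matrices of 3 libraries, 1 per group, which hold whole-number counts per gene (UMIs) and per peak, per the file headers and values. The submitters' processing notes name Cell Ranger ARC 2.0.1, Seurat 5.0.1, Signac 1.12.0 and the mm10 build, without roles. How strand was used in counting is not given in the sources used here.

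Barcodes under 500 UMIs, under 300 genes or over 10% mitochondrial UMIs were dropped, which left 7683, 9901 and 9637. Scrublet in scanpy 1.11.5 scored doublets, and the top 0.8% per 1000 barcodes were removed (511, 1053 and 716), because its automatic call gave 0, 316 and 0. That left 7172, 8848 and 8921 nuclei with median depths of 1635, 800 and 1200 UMIs. They were clustered on 2000 variable genes without the 10 genes (30 components, 15 neighbours) and clusters were named "like" a type from markers. Clusters with contrary leading genes, a tie of markers or mostly doublets stayed unnamed (569, 1018 and 367 nuclei). Counts were summed per class and library and given as counts per 1000000 (CPM) with exact Poisson 95% intervals, and ratios with conditional binomial intervals. With 1 library per group no test was possible. A value was counted past 1.5-fold with at least 30 UMIs in the higher library. ATAC values are counts per 1000000 in regions with a peak in all 3 libraries, peaks having been called per library. A region without a peak in a library has no count there.

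The named genes are the 10, up to 2 highest and 2 lowest ratios past 1.5-fold in each list, and the 3 genes most alike each of the 10 by correlation of log2(CPM + 1). Gnb3 at 4 weeks is given as the same gene at the other time. Of the genes this rule names, 1 is not reported here. The members and lists were chosen with earlier results of these data known. Alternatives covered doublets, scaling, the UMI minimum, class calls, rod RNA subtraction, the fold and minimum used for counting, and the window around the start. Ratio calls were tried on Poisson counts simulated from rod-like totals, with well-counted genes changed 2-fold. The simulation held counting error only, so it does not cover differences between libraries, genes with few UMIs or the other classes. The rod RNA estimate was tried on counts drawn from the rod-like profile that also gave the expectation. That trial cannot show whether rod RNA in other classes has this composition. Python 3.11.15, numpy 2.4.6, scipy 1.17.1, pandas 2.3.3, scikit-learn 1.9.0 and matplotlib 3.10.9 were used.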

Additional observations from a re-analysis of the deposited data

Results flagged for a closer look

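For some of the 10 genes, ratios between libraries went in opposite directions in a pair of classes with both counting intervals clear of 1. The same was not counted over all genes, so no share is given beside it. The difference between classes was not tested, since each group is 1 library. Nrl from 2 to 4 weeks was at 0.855 in rods and 1.51 in cones, where its level lay at that expected from rod RNA. Esrrb at 2 weeks was at 1.39 times the control in rods and 0.710 in bipolars, and from 2 to 4 weeks at 0.802 in rods and 1.49 in cones. Samd11 was at 1.36 in rods and 0.706 in bipolars at 2 weeks, and at 1.19 and 0.654 at 4 weeks. Esrrb and Samd11 in cones and bipolars were below the level expected from rod RNA. Neurod1 at 4 weeks was at 1.10 in rods, 0.905 in cones and 0.884 in bipolars. Thrb at 2 weeks was at 1.17 in cones and 0.733 in bipolars, where its level was also below that expected from rod RNA in each library.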

How the results depend on the processing

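Each group is 1 library, so the values describe these libraries, intervals cover counting error only, and depth differed between libraries. No paired analysis was possible because each group is 1 library. Of 78 recomputed counts of genes past 1.5-fold, 56 stayed within 1.5 times the count reported and 22 did not. Of 18 recomputed counts of regions, 10 did and 8 did not. Shares over all genes and regions were not recomputed for these settings, so the recomputed counts have no background beside them. Of 531 recomputed ratios of the 10 genes, 487 stayed within counting error, 42 moved and 2 reversed, and 30 had no value because subtracting the expected rod counts left 0. The cause was not tested unless named.

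In rods the count at 2 weeks was 0 in place of 1 at a fold of 2, while the Neurod1 ratio ranged from 1.60 to 1.71 over its alternatives. From 2 to 4 weeks it was 0 in place of 1 with median-of-ratios size factors, at a fold of 2 and with unnamed clusters included, an alternative chosen after seeing the data. In cones the count at 4 weeks was 0 in place of 1 with classes from the highest marker score, with rod counts subtracted and at a fold of 2, and the Nrl ratio ranged from 0.522 to 0.747. From 2 to 4 weeks it was 0 in place of 1 with doublets kept, without mitochondrial genes, Gm42418, AY036118, Malat1 and 5 rod genes in the total, with median-of-ratios size factors, with marker scores and at a fold of 2.

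In bipolars the count at 2 weeks was 1 in place of 3 with doublets kept and with rod counts subtracted. At 4 weeks it was 1 in place of 4 with doublets kept, with marker scores and at a fold of 2, and 0 with rod counts subtracted. From 2 to 4 weeks it was 0 in place of 1 in all 4 of these settings. Samd11 in bipolars at 4 weeks, at 0.654 times the control, was at 1.04 with doublets kept and 1.01 with marker scores.

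With regions within 1 kb of a start, where fewer regions are measured, the counts were 2 in place of 8 in rods at 2 weeks, 1 in place of 4 at 4 weeks and 1 in place of 4 from 2 to 4 weeks. In cones they were 1 in place of 6 at 2 weeks and 2 in place of 5 from 2 to 4 weeks, and in bipolars 3 in place of 7 and 4 in place of 8 at 2 and 4 weeks. A smaller count from fewer regions need not be a smaller share. With ATAC counts scaled to all counts of the class, the bipolar count at 2 weeks was 13 in place of 7.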

Other observations

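Some clusters with rod markers were led by genes of other cell types and were left out of the rod class. A cluster led by the immunoglobulin genes Igkc and Ighm held 657 nuclei at 2 weeks and 78 at 4 weeks. Neurod1 there was at 1200 and 811 CPM, Nrl at 746 and 541, Esrrb at 1119 and 1033 and Samd11 at 699 and 602. A cluster led by the antigen presentation genes Cd74 and H2-Aa and the complement gene C1qc held 140 nuclei at 2 weeks, with Neurod1 at 1317 CPM, Nrl at 766 and Crx at 637. Neurod1 in the immunoglobulin-led cluster was thus also higher at 2 weeks than at 4 weeks.

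A cluster led by Ttr and Ccn2 held 156, 101 and 146 nuclei in the control, 2-week and 4-week libraries. Its Nrl was at 798, 383 and 409 CPM with the 5 rod genes at 15374, 9015 and 10608 CPM. Its Neurod1 was at 687, 751 and 729 CPM and its Crx at 517, 181 and 375 CPM. The 2-week Neurod1 level was under that of the rod-like clusters, but the rod gene RNA of this cluster was also lowest in that library. The part of a smaller share of rod RNA in this level was not tested.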
